A study of Mus musculus with 6 samples.

Results

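The 10 genes described here encode lipoxygenases, cyclooxygenases and the enzymes that act next to them: Alox5, Alox5ap, Alox12, Alox15, Ptgs1, Ptgs2, Ptges, Ptgis, Ptgds and Hpgd. They were chosen by symbol from the 53819 genes listed in the deposited tables, and each symbol was found. Alox12 was put on this list because earlier results of these data had shown it lower in DTR tendons, so its values are given as a description and without a test. The libraries came from flexor digitorum longus (FDL) tendons harvested at D28 after transection and repair, with 1 tendon per library. The 3 DTR libraries were from Scx-Cre+; DTR F/+ mice, in which Cre under the Scx promoter switches on the diphtheria toxin receptor. The 3 WT libraries were from littermates without Cre (Scx-Cre-; DTR F/+), which carried the same floxed receptor allele. Both groups received 5 daily injections of 100 ng diphtheria toxin (DT) from D14 to D18 post-surgery. They were males and females, 10 to 12 weeks old at surgery, and their strain is not given in the sources used here. This Cre is not inducible, so the receptor is present in every cell that has ever expressed Scx, and the sequenced tendons carried no reporter from which the depletion could be measured.

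Eicosanoids are short-lived lipid signals made from arachidonic acid, which phospholipases A2 release from membranes. Lipoxygenases turn it into hydroperoxides, leukotrienes and pro-resolving lipids, while cyclooxygenases turn it into prostaglandin H2, from which terminal synthases make prostaglandin E2, prostacyclin, prostaglandin D2 and thromboxane. Tendon fibroblasts and the immune cells of a wound both make them, and prostaglandin E2 is a known mediator of tendon inflammation.

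Between 42744138 and 48854310 counts per library fell on genes, and 17496 genes passed edgeR's filter on low counts. Values below are normalized counts, that is counts scaled by TMM to an average library, and p-values are from edgeR's quasi-likelihood test adjusted over all tested genes by Benjamini-Hochberg, with 0.05 as the threshold. The p-values measure the spread between 3 animals per group. In whole tendons, fewer cells of a type and less RNA per cell cannot be told apart. Libraries stood apart within their groups: the share of counts on keratinocyte marker genes was 0.323% in WT replicate 1 and 0.196% in WT replicate 2, against 0.00145% to 0.0315% in the other 4 libraries. Skeletal muscle markers held 0.329% and 0.622% in DTR replicates 1 and 3, against 1.98% to 2.72% in the others. Xist counts were high, as in female cells, in WT replicate 2 and DTR replicates 2 and 3, so both groups held libraries of each kind. Neutrophil markers held 0.0197% in DTR replicate 1, against at most 0.00311% elsewhere. The defining tendon markers were present in all 6 libraries, at 3.84% to 4.52% of counts in WT and 4.30% to 5.57% in DTR.

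Of the 10 members, 8 passed the filter, and Alox15 and Ptgds did not. None of the 7 members tested other than Alox12 passed the threshold in edgeR, with adjusted p between 0.354 and 0.998. Over all genes edgeR called 0 higher and 0 lower (background 0% in each direction), although 1918 genes had an unadjusted p under 0.05, which is 11% of those tested. Ptgs2, the inducible cyclooxygenase COX-2, had the largest difference among these 7 and was the 1 of them called by DESeq2, which called 1.12% of its 17564 genes higher and 1.53% lower (2.65% in either direction). The values of WT and DTR libraries did not overlap for 4 of the 10 members: Ptgs2 was higher in every DTR library, and Alox12, Alox15 and Ptgs1 were lower (Ptgs1 overlapped when scaled by library size alone). Of these 4, Alox12 was put on the list for its fall, so its place in this count was given in advance, and Alox15 was not tested. Over all tested genes, 8.97% did not overlap with DTR higher and 7.85% with DTR lower. Among the 7 tested members, 3 had a fitted fold change above 0 and 4 below, with a median log2 fold change of -0.07, against 0.01 over all tested genes.

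**Figure D1:**
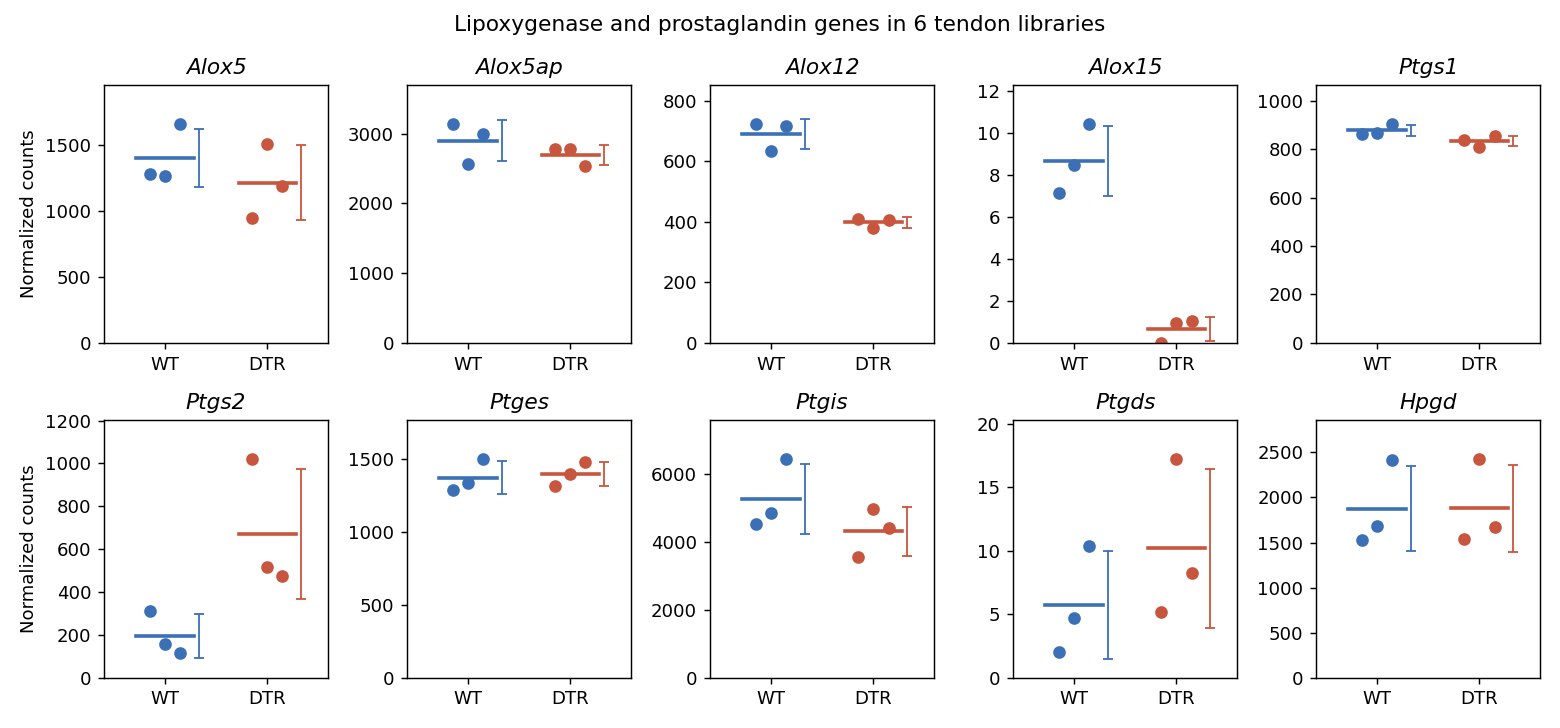
Normalized counts (vertical axis, from 0, a different scale for each gene) of the 10 genes in the 3 WT (blue) and 3 DTR (red) libraries. Each point is 1 library in replicate order, the line is the group mean and the bar beside it is the SD. The groups are apart for Alox12 and Alox15 (DTR lower) and Ptgs2 (DTR higher), narrowly apart for Ptgs1, and overlap for the other 6.

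Alox12 and Ptgs2 were the members well above the detection limit whose groups lay apart by a wide margin, in opposite directions, and the sequences before their start sites are shown for that reason. The sequences are from RefSeq (GRCm38.p6), 250 bases upstream of the annotated start, 5′ to 3′ on the gene's strand. A longer window, of these and the first 50 bases after the annotated start, was found for 7 of the 10 members. Alox5ap, Alox15 and Ptgis had no entry in the table used. Capitals mark matches on either strand to 4 motifs: the TATA box (TATAAA), the cyclic AMP response core (TGACG), the E-box (CANNTG) and the GC box (GGGCGG). The Alox12 window is upstream at chr11:70255371-70255620 on the minus strand and the Ptgs2 window at chr1:150099781-150100030 on the plus strand.
Alox12: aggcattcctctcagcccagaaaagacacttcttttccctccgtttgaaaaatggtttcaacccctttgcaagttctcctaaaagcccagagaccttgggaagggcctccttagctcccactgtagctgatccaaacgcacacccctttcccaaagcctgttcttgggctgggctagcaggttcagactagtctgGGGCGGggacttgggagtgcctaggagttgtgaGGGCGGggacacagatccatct
Ptgs2: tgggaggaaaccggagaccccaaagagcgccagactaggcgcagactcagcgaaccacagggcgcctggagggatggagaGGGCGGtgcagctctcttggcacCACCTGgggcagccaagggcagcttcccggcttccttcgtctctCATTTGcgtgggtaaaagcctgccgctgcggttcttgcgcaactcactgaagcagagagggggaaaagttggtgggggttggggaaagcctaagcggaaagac
The Alox12 window held 3 GC boxes, at positions -55 to -50, -22 to -17 and 42 to 47 from the start site, and none of the other motifs. The Ptgs2 window held 3 E-boxes at -147 to -142, -103 to -98 and 17 to 22, a GC box at -170 to -165, and a cyclic AMP response core on the minus strand at 14 to 18, which overlaps the last E-box. The end of the longer Ptgs2 window was found in a GENCODE M21 transcript of Ptgs2. The end of the Alox12 window was not found in any GENCODE M21 transcript of Alox12, so its start site and the positions counted from it are less certain. Of 32851 RefSeq promoter windows of this length, 35.7% held a GC box, 72.3% an E-box, 20.8% a cyclic AMP response core and 13.6% a TATA box, so each of these matches is common. A match is a description of the letters and does not show binding.

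Alox12 encodes the platelet-type 12-lipoxygenase, which makes 12-hydroperoxy fatty acids from arachidonic acid. It measured 722, 633 and 716 normalized counts across the WT replicates, in order, against 410, 378 and 406 across the DTR replicates. All 3 DTR libraries were below the lowest WT library, and the spread within each group was small. The WT mean was 690 ± 49.8 (SD, n = 3) and the DTR mean was 398 ± 17.6 (SD, n = 3), a log2 fold change of -0.79 (SE 0.12), or 0.577 of the WT level. Over 17 alternative fits, which reuse the libraries that Alox12 was picked from, the log2 fold change lay between -0.87 and -0.76.

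Platelets and skin are the known main sites of Alox12, and markers of both were compared with it. The summed platelet markers held 0.0101% to 0.0127% of WT counts and 0.00847% to 0.0117% of DTR counts, so the groups overlapped. Of the 12 platelet markers, 6 had a mean under 10 normalized counts, among them the platelet receptor genes Gp9, Gp6 and Gp5. WT replicate 3 had a keratinocyte share of 0.00286% and 716 normalized counts of Alox12, and DTR replicates 1 and 2 had shares of 0.00145% and 0.00259% and 410 and 378 counts. With WT replicates 1 and 2 both left out, which leaves 1 WT library, the log2 fold change of Alox12 was -0.85 (SE 0.19), and with the keratinocyte share as a covariate it was -0.81 (SE 0.15). Mast cell markers held 0.00851% to 0.0115% of counts in WT and 0.00431% to 0.00828% in DTR. Of these 9 markers, 5 were lower in every DTR library. Adipocyte markers held 0.0118% to 0.0207% in WT and 0.00828% to 0.0143% in DTR, so the groups overlapped. Of these 9 markers, 6 were lower in every DTR library. Over all tested genes, 7.85% were lower in every DTR library. The fits above reuse the libraries that Alox12 was picked from. The part of platelets, keratinocytes, mast cells and adipocytes in the Alox12 difference was not tested.

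The epidermal lipoxygenase genes, which are relatives of Alox12 and not members of the list, varied strongly between libraries of a group. Alox12b, the epidermal 12R-lipoxygenase, had 933 and 625 normalized counts in WT replicates 1 and 2, 0 in WT replicate 3, 0 in DTR replicates 1 and 2, and 59.6 in DTR replicate 3. Alox12e, which lies next to Alox12 on its chromosome in GENCODE M21, measured 325, 492 and 4.16 counts across WT libraries against 0, 0 and 37.0 across DTR libraries. Aloxe3, the epidermis-type lipoxygenase 3, measured 797, 444 and 18.7 counts across WT libraries against 11.3, 29.7 and 140 across DTR libraries. All 3 were highest in WT replicates 1 and 2, the libraries with the most keratinocyte transcripts, and overlapped between groups. The gene Pelp1, on the far side of Alox12e and Alox15, measured 866, 850 and 777 counts across WT libraries against 943, 796 and 806 across DTR libraries (log2 fold change 0.03, SE 0.11).

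**Figure D2:**
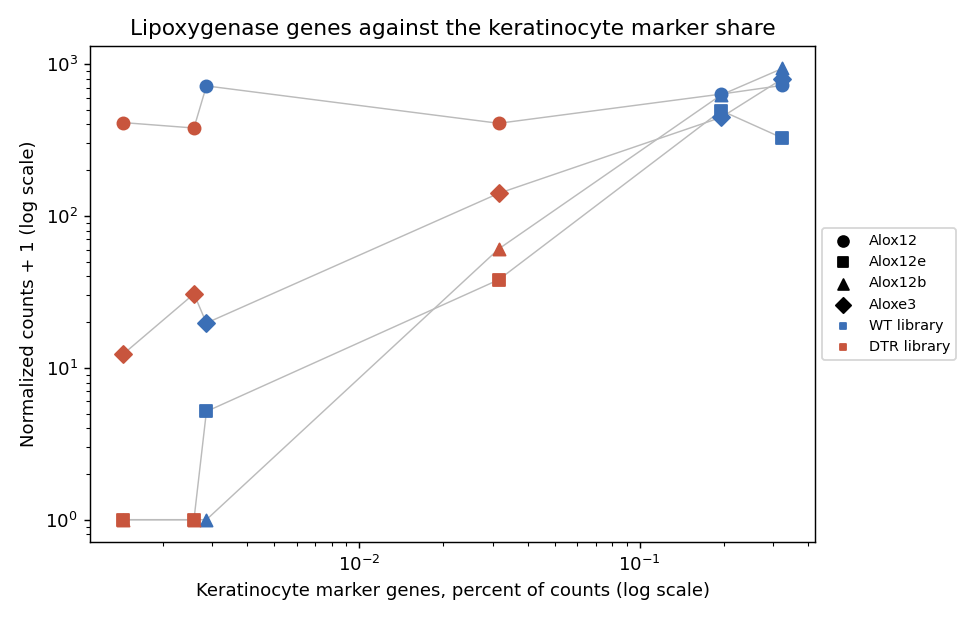
Normalized counts plus 1 (vertical axis, log scale) of Alox12, Alox12e, Alox12b and Aloxe3 against the percent of counts on keratinocyte marker genes (horizontal axis, log scale) in each library, WT in blue and DTR in red. The lines join the 6 libraries of a gene. Alox12e, Alox12b and Aloxe3 are highest in the 2 WT libraries with the most keratinocyte transcripts, and Alox12 is at 716 in the WT library with a share of 0.00286%.

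Alox15, the 12/15-lipoxygenase of mouse macrophages and eosinophils and a neighbour of Alox12, was barely detected. Its raw counts were 7, 9 and 10 across the WT replicates against 0, 1 and 1 across the DTR replicates, and it was below the filter and not tested. Every DTR library was below every WT library, at 26 against 2 counts in all. The depth-adjusted ratio of DTR to WT was 0.0775, with a 95% exact interval of 0.00891 to 0.309 that covers counting error only and not the spread between animals. The summed macrophage markers overlapped between groups, with 0.228% to 0.269% of counts in WT and 0.227% to 0.248% in DTR. Of the 15 markers, 10 had a fitted fold change below 0 and 5 above, with a median log2 fold change of -0.03. Cd163, a scavenger receptor of resident macrophages, was the 1 of the 15 whose groups did not overlap. It measured 2513, 2714 and 2122 counts across WT libraries against 490, 1123 and 944 across DTR libraries (log2 fold change -1.52, SE 0.31, edgeR adjusted p = 0.294, DESeq2 adjusted p = 2.7e-06). Its part in the Alox15 values was not tested. Eosinophil markers held at most 0.000212% of any library, and the defining eosinophil gene Epx was at 0 in all 6. Il5ra, at 3.05, 7.53 and 7.28 counts across WT libraries, was at 0 in every DTR library. Prg2 measured 2.03, 3.77 and 6.24 counts across WT libraries against 0, 1.91 and 1.03 across DTR libraries. Siglecf and Ccr3 overlapped, with fitted fold changes above 0. The part of eosinophils in the Alox15 values was not tested.

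Alox5 encodes 5-lipoxygenase, which starts leukotriene synthesis, and Alox5ap encodes FLAP, the membrane protein that presents arachidonic acid to it. Alox5 measured 1283, 1268 and 1657 normalized counts across WT libraries against 948, 1510 and 1186 across DTR libraries. DTR replicates 1 and 3 were below all WT libraries and DTR replicate 2 was within their range, so the groups overlapped (log2 fold change -0.21, SE 0.19, edgeR adjusted p = 0.696). Alox5ap measured 3134, 2564 and 3002 counts across WT libraries against 2774, 2782 and 2535 across DTR libraries. The groups again overlapped, and the fitted change was small beside its error (log2 fold change -0.10, SE 0.10, edgeR adjusted p = 0.708).

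Ptgs1 and Ptgs2 encode the cyclooxygenases COX-1, made constitutively in many cells, and COX-2, induced by inflammatory signals and mechanical load. Ptgs1 measured 863, 866 and 902 normalized counts across WT libraries against 839, 808 and 852 across DTR libraries. Every DTR library was below every WT library, but the nearest libraries lay close together, at 852 and 863 counts, they overlapped when scaled by library size alone, and the change was smaller than its error (log2 fold change -0.07, SE 0.09, edgeR adjusted p = 0.772). Ptgs2 measured 312, 156 and 114 counts across WT libraries against 1020, 516 and 474 across DTR libraries. Each DTR library exceeded all WT libraries, and replicate 1 was the highest in both groups. The WT mean was 194 ± 104 (SD, n = 3) and the DTR mean was 670 ± 304 (SD, n = 3).

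The log2 fold change of Ptgs2 was 1.79 (SE 0.49), or 3.45-fold, with an edgeR p of 0.0109 before adjustment and an adjusted p of 0.354, so the difference did not pass the threshold. DESeq2 fitted nearly the same log2 fold change (1.78, SE 0.37) with an adjusted p of 0.000415, which passed. Among the alternatives, 1 of 17 therefore called Ptgs2, and the adjusted p of the others ran from 0.0970 to 0.999. DTR replicate 1, with 1020 counts, was also the library with the most neutrophil transcripts, and without it the log2 fold change was 1.35 (SE 0.42, edgeR adjusted p = 0.623). DTR replicates 2 and 3, with 516 and 474 counts, had neutrophil shares of 0.00311% and 0.00138%, and WT replicate 1, with 312 counts, had a share of 0.00249%. The part of neutrophils in the Ptgs2 difference was not tested. With a skeletal muscle covariate the log2 fold change was 1.36 (SE 0.67), and the part of muscle was likewise not tested.

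**Figure D3:**
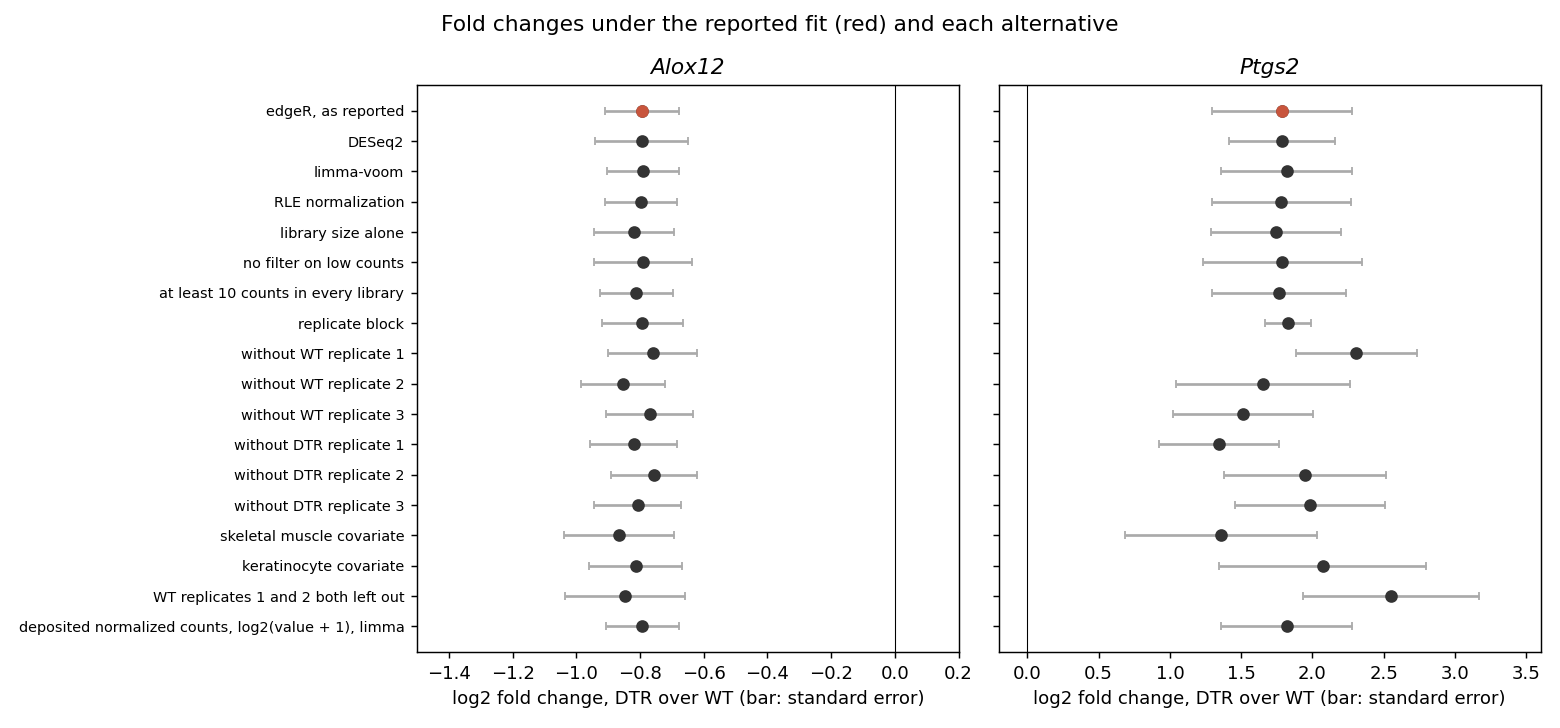
Log2 fold change of DTR over WT (horizontal axis, with the standard error as bar) of Alox12 and Ptgs2 under the reported edgeR fit (red) and 17 alternatives (vertical axis). Alox12 stays between -0.87 and -0.76, while Ptgs2 moves between 1.35 and 2.55, and neither crosses 0. Alox12 was picked for its fall in these same libraries, so its steady values are a description only.

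For the tested terminal synthases the groups overlapped. Ptges, the inducible microsomal prostaglandin E synthase that often accompanies COX-2, measured 1285, 1334 and 1501 normalized counts across WT libraries against 1318, 1397 and 1479 across DTR libraries. The DTR libraries all lay within the WT range, with a log2 fold change of 0.03 (SE 0.10, edgeR adjusted p = 0.944). Ptgis, the prostacyclin synthase of vessels and fibroblasts, measured 4508, 4835 and 6432 counts across WT libraries against 3542, 4968 and 4392 across DTR libraries. DTR replicates 1 and 3 were below all WT libraries and DTR replicate 2 above the lower pair, so the groups overlapped (log2 fold change -0.29, SE 0.17, edgeR adjusted p = 0.547). Ptgds, the lipocalin-type prostaglandin D synthase, was near the detection limit with 2, 5 and 10 raw counts in WT and 5, 18 and 8 in DTR, and it was not tested. The haematopoietic prostaglandin D synthase gene Hpgds, outside the list, had far more counts, with 1995, 1718 and 2097 in WT and 2056, 2422 and 2169 in DTR (log2 fold change 0.19, SE 0.11, edgeR adjusted p = 0.516).

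Hpgd encodes 15-hydroxyprostaglandin dehydrogenase, which inactivates prostaglandins. It measured 1528, 1683 and 2417 normalized counts across WT libraries against 1540, 2427 and 1669 across DTR libraries. Each group had 1 high and 2 lower libraries, and the means were 1876 ± 475 (SD, n = 3) and 1878 ± 479 (SD, n = 3), a log2 fold change of 0.00 (SE 0.24, edgeR adjusted p = 0.998). With this spread, a moderate difference in Hpgd in either direction would not have been detectable.

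Among the DTR libraries, Alox5, Ptgis, Hpgd and the muscle markers were all highest in DTR replicate 2. Without DTR replicate 2, the groups did not overlap for 6 of the 10 members (34% of all tested genes did not overlap between these 5 libraries), with Alox5 and Ptgis added on the lower side. These 6 include Alox12, which was picked for its fall, and the untested Alox15. The edgeR fit without this replicate called 0 of the tested members other than Alox12. Over all genes that fit called 103 higher (0.572%) and 441 lower (2.45%), against 0 in the fit of all 6 libraries.

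Levels of different genes were compared as CPM divided by the exon length in kilobases, with lengths from GENCODE M21. In WT tendons Ptgis (44.6 ± 8.73) and Alox5ap (44.5 ± 4.58) were the most abundant, and their libraries overlapped. Hpgd followed at 24.3 ± 6.14, then Ptges (7.61 ± 0.627) and Alox5 (7.44 ± 1.17), which overlapped with each other, and Ptgs1 at 4.92 ± 0.122. Alox12 stood at 3.68 ± 0.266 and Ptgs2 at 0.923 ± 0.494, and Alox15 (0.0768 ± 0.0147) and Ptgds (0.0754 ± 0.0564) came last with overlapping libraries (SD, n = 3 for each level). In DTR tendons the order changed at 3 places: Alox5ap (41.4 ± 2.15) was above Ptgis (36.5 ± 6.08), Ptgs2 (3.18 ± 1.45) was above Alox12 (2.12 ± 0.0936), and Ptgds was above Alox15. The COX-2 gene was thus below the platelet-type lipoxygenase gene in every WT library and above it in every DTR library. In DTR replicate 3 the margin was narrow, at 2.25 for Ptgs2 and 2.16 for Alox12. Part of this change of order is the fall for which Alox12 was picked.

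A list of 63 further genes of the pathway, set by role, was examined beside the members. Of these, 54 were tested, edgeR called 0, DESeq2 called 2 (both lower, against 1.53% of all genes), and 8 had an edgeR p under 0.05 before adjustment, against 11% of all genes. A fitted fold change above 0 was found for 22 and below 0 for 32, with a median log2 fold change of -0.09. Of the 54 genes, 1 was higher and 8 were lower without overlap, against 8.97% and 7.85% of all genes, and 5 of these 8 were among the 14 tested phospholipases A2. Both DESeq2 calls were secreted phospholipases A2. Pla2g2d, which is expressed by dendritic cells and lymphoid tissue macrophages, measured 97.4, 50.8 and 82.1 normalized counts across WT libraries against 26.8, 27.7 and 25.7 across DTR libraries (log2 fold change -1.52, SE 0.32, edgeR adjusted p = 0.275, DESeq2 adjusted p = 0.0132). Pla2g12a measured 1618, 2061 and 1348 counts across WT libraries against 1003, 1262 and 1041 across DTR libraries (log2 fold change -0.60, SE 0.17, edgeR adjusted p = 0.347, DESeq2 adjusted p = 0.0449). In the edgeR fit with a skeletal muscle covariate, the log2 fold change was -1.47 (SE 0.50) for Pla2g2d and -0.39 (SE 0.21) for Pla2g12a. The part of muscle in these differences was not tested.

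The other phospholipases A2 whose groups did not overlap and that met the rule for naming were Pla2g4e and Pla2g5. Pla2g4e, which is expressed in skeletal muscle, measured 796, 662 and 365 counts across WT libraries against 48.4, 320 and 115 across DTR libraries, and its lowest libraries were the DTR libraries with the least muscle marker transcripts. The log2 fold change of Pla2g4e was -1.91 (SE 0.76), and -0.73 (SE 0.33) with the skeletal muscle covariate. Pla2g5 measured 796, 623 and 731 counts across WT libraries against 267, 578 and 388 across DTR libraries (log2 fold change -0.80, SE 0.27, edgeR adjusted p = 0.402). Without DTR replicate 2 Pla2g5 was the 1 pathway gene outside the members that edgeR called (log2 fold change -1.13, adjusted p = 0.0344), in a fit whose remaining DTR libraries were those with the least muscle transcripts. With the skeletal muscle covariate its log2 fold change was -0.28 (SE 0.20, edgeR adjusted p = 0.857). The muscle share of those DTR libraries was below that of every WT library, so this covariate and genotype are partly confounded. The part of muscle in the Pla2g4e and Pla2g5 differences was not tested. The main cytosolic phospholipase of prostaglandin synthesis, Pla2g4a, overlapped between groups, with 1374, 883 and 1299 counts in WT and 2095, 1642 and 1146 in DTR (log2 fold change 0.46, SE 0.26, edgeR adjusted p = 0.543).

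Downstream of Alox5, the leukotriene C4 synthase gene Ltc4s measured 250, 256 and 297 counts across WT libraries against 121, 237 and 161 across DTR libraries, lower in every DTR library but with an edgeR adjusted p of 0.452 (log2 fold change -0.63, SE 0.26). With the skeletal muscle covariate it was -0.19 (SE 0.27), and the part of muscle in the Ltc4s difference was not tested. The leukotriene A4 hydrolase gene Lta4h overlapped between groups (log2 fold change 0.12, SE 0.08). Downstream of the cyclooxygenases, the thromboxane receptor gene Tbxa2r measured 40.6, 47.1 and 54.0 counts across WT libraries against 37.1, 27.7 and 21.6 across DTR libraries (edgeR adjusted p = 0.465), again lower without overlap. The prostaglandin reductase gene Ptgr1 was the 1 pathway gene outside the members that was higher without overlap, with 919, 802 and 1046 counts in WT and 1131, 1283 and 1147 in DTR (log2 fold change 0.36, SE 0.12, edgeR adjusted p = 0.388). The soluble epoxide hydrolase gene Ephx2 measured 105, 116 and 107 counts across WT libraries against 70.1, 95.7 and 71.9 across DTR libraries (edgeR adjusted p = 0.497). Fpr2, a receptor for formyl peptides and lipoxin A4 that neutrophils express, measured 41.6, 17.9 and 14.6 counts across WT libraries against 212, 40.2 and 38.0 across DTR libraries. The groups overlapped (log2 fold change 1.97, SE 0.83, edgeR adjusted p = 0.461). The highest value of Fpr2 was in the same DTR library as that of Ptgs2 and the neutrophil markers, and a link between them was not tested.

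**Figure D4:**
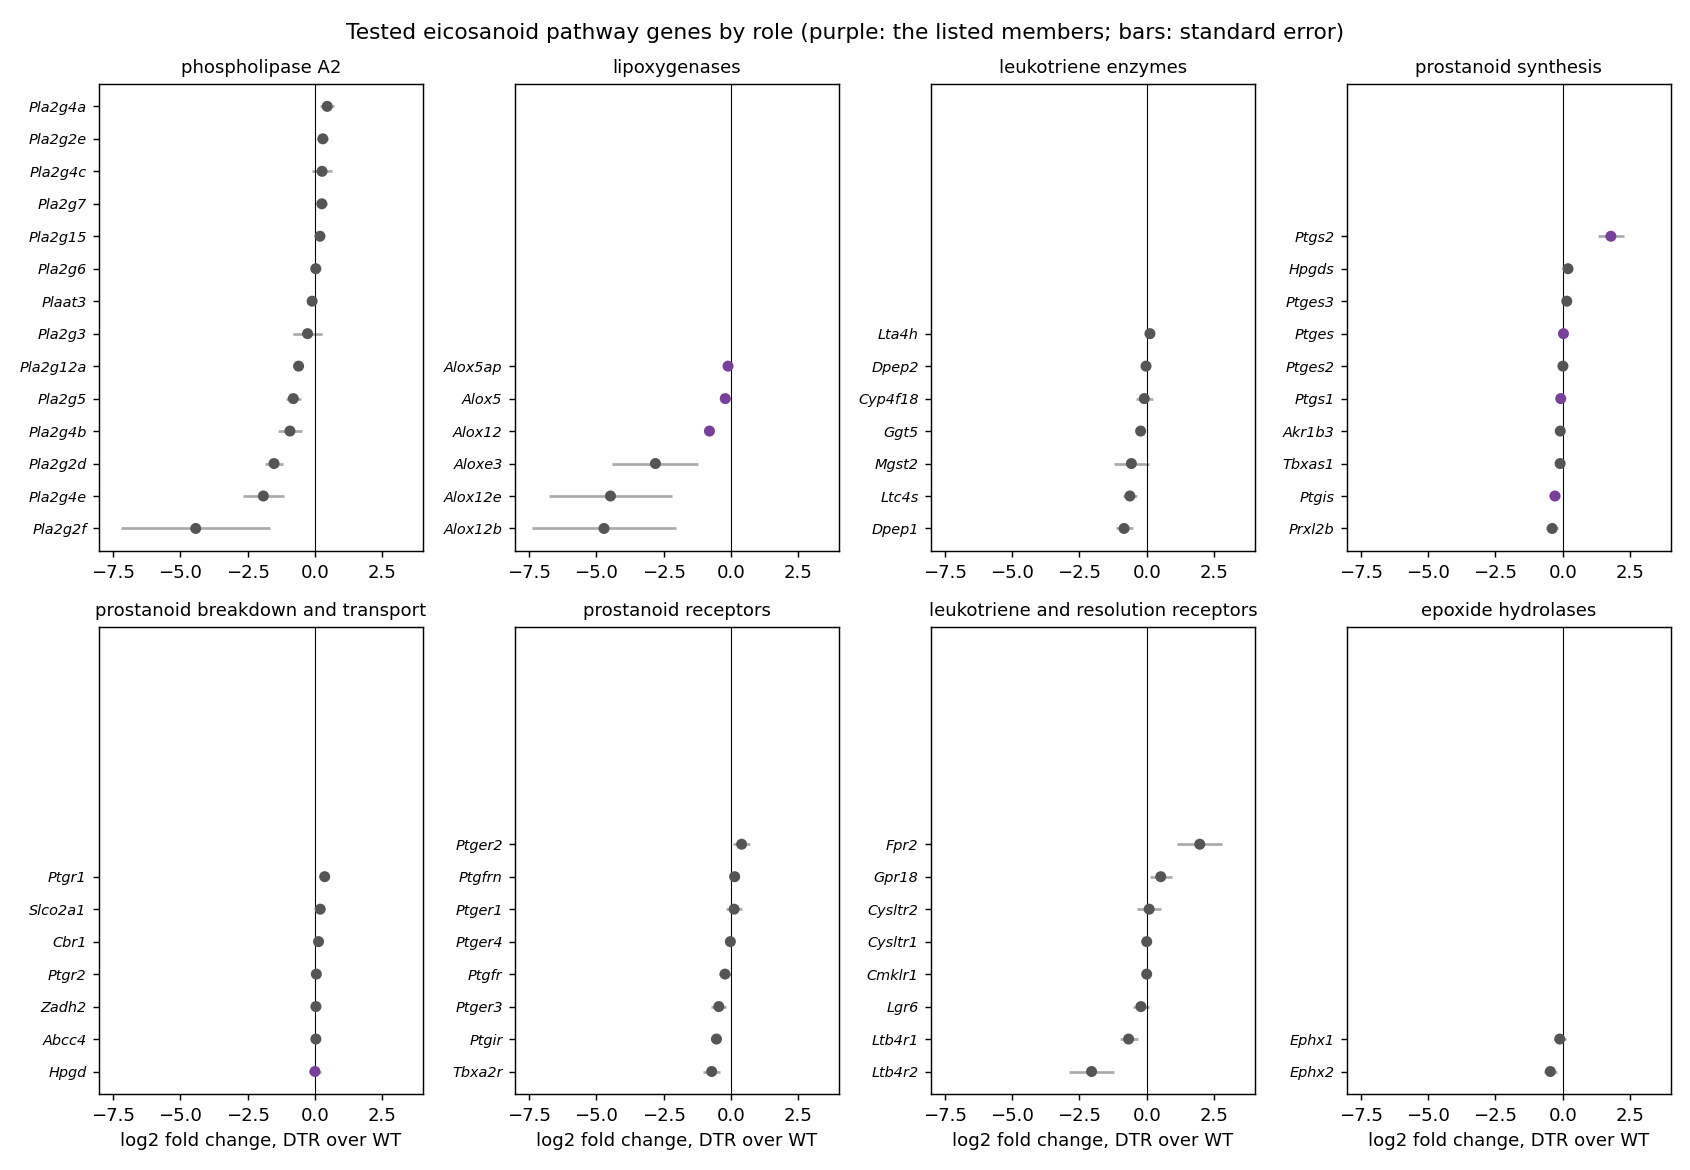
Log2 fold change of DTR over WT (horizontal axis, points, with the standard error as bar) of the tested pathway genes, 1 panel per role, the listed members in purple and other genes in grey. Ptgs2 lies at 1.79 among prostanoid synthesis genes that are near 0, and several phospholipases A2 lie below 0, with wide errors for the epidermal lipoxygenases.

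Outside the list, the genes most like Alox12, Alox15, Ptgs2 and Ptgds were found by Pearson's r of log2 CPM over the 6 libraries, among 14401 genes whose mean normalized count was 50 or more. For Alox12 these were Camk2g (r = 0.991), a calcium/calmodulin-dependent kinase subunit, Atp9a (r = 0.975) and Nit1 (r = 0.972). Camk2g measured 3284, 3042 and 3280 counts across WT libraries against 2656, 2646 and 2654 across DTR libraries. Its groups were also apart, which largely follows from its choice by likeness to Alox12. For Ptgs2 they were Gpr39 (r = 0.991), a zinc-sensing receptor, Fam91a1 (r = 0.988) and Tlr6 (r = 0.986), a Toll-like receptor. Among the genes most like Alox15 were Ppil6 (r = 0.992) and Cdo1 (r = 0.987), a cysteine dioxygenase. Ptgds was most like Ndnf (r = 0.997), Wee1 (r = 0.995) and Rab40b (r = 0.994), but Alox15 and Ptgds themselves had few counts. All of these correlations are descriptions over 6 libraries that share the genotype split and the library composition.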

How the data were processed

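Single-end reads were trimmed by the authors with FastP and assigned to genes with featureCounts, and the raw counts were deposited. A deposited signal table of normalized values was checked to be the counts divided by 1 size factor per library (DESeq2 1.22.1 per the labels). The aligner, genome build, annotation and strand setting are not given in the sources used here, so genes that overlap on opposite strands are uncertain: Alox5ap with Gm19719, Ptgs1 with Gm43621 and Ptgis with 1110018N20Rik. The labels name a TruSeq Stranded mRNA kit and a SMARTER kit, and 200 ng of total RNA per library. The titles place D28 after depletion, whereas the extraction protocol places it after surgery, which is used here.

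Tests were run with edgeR 4.0.16 in R 4.3.3 (filterByExpr, TMM, robust quasi-likelihood fit with genotype as the single term); DESeq2 1.42.0 and limma 3.58.1 served as alternatives. Standard errors were derived from the log2 fold change and the F statistic. The script was tested on simulated data. Chi-square per degree of freedom between replicate libraries was 36.6 to 190, so no library was a duplicate of another. Same-numbered WT and DTR libraries had correlations of deviations of -0.05, -0.02 and -0.57, so the numbers did not pair them.

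The members and lists were chosen with earlier results of these data known. The other pathway genes named were those called by edgeR or DESeq2, then those without overlap whose mean normalized count was 20 or more. Pla2g4a, Lta4h, Hpgds, Fpr2, Pelp1, Cd163 and the epidermal lipoxygenases were named after their values were seen. Of the genes most like the members, 1 is not reported here.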

Additional observations from a re-analysis of the deposited data

How the results depend on the processing

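Of the results on single genes other than Alox12, which was not tested, 239 values kept their direction and side of the threshold under the alternatives, 4 passed the threshold where the reported fit did not (Ptgs2, Pla2g2d and Pla2g12a with DESeq2, Pla2g5 without DTR replicate 2), and 12 turned in direction. Those that turned were for Ptges and Hpgd, which were near 0 in the reported fit, and for Alox5. The log2 fold change of Alox5 was 0.079 (SE 0.19) with the muscle covariate, against -0.21 (SE 0.19) as reported. For Ptges it was between -0.020 and 0.092 with 1 library left out (-0.020 without WT replicate 1, -0.015 without DTR replicate 3), -0.016 with the keratinocyte covariate and -0.10 without WT replicates 1 and 2. For Hpgd it was -0.023 with library size alone, -0.013 with at least 10 counts in every library, between -0.22 and 0.22 with 1 library left out (below 0 without WT replicate 1, WT replicate 2 or DTR replicate 2), -0.24 with the keratinocyte covariate and -0.36 without WT replicates 1 and 2. The cause was not tested.

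The number of genes called was 0 in each direction as reported. DESeq2 called 197 higher and 269 lower, the fit without a filter on low counts 45 and 38, and fits leaving out 1 library between 0 and 103 higher and between 0 and 441 lower, with the highest values without DTR replicate 2. Alox12 apart, DESeq2 called 1 member and 2 other pathway genes, and leaving out 1 library gave 0 members and between 0 and 1 other pathway genes. The counts of members without overlap that follow do include Alox12, which was picked for its fall. The groups did not overlap for 4 members as reported, for 3 with library size alone, for between 4 and 6 with 1 library left out (22.3% to 34% of all tested genes), and for 8 without WT replicates 1 and 2 (48% of all tested genes), where 1 WT library remains and is assumed to vary like the others.

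With the replicate number as a block, edgeR called 0 genes higher, 1 lower and 0 members, and Ptgs2 had a log2 fold change of 1.83 with an adjusted p of 0.0970. With 3 animals per group, few animals limit these comparisons, and for Alox15 and Ptgds the counts are also few.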
